A study of Homo sapiens with 8 samples.

Results

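The interleukin-1 (IL-1) family and its receptors were followed in BEAS-2B cells, an established human bronchial epithelial cell line immortalised with viral genes, through 8 genes chosen by symbol. They were the cytokine genes IL1A, IL1B, IL18 and IL36G, the receptor antagonist gene IL1RN, and the receptor genes IL1R1, IL1RAP and IL1RL1. All 8 were found among the 26485 genes of the deposited tables. Total RNA was sequenced from cells given LY96 siRNA and house dust mite (HDM) extract (3 libraries), control siRNA and HDM extract (3 libraries), LY96 siRNA and PBS (1 library), and control siRNA and PBS (1 library). LY96 encodes MD-2, which binds lipopolysaccharide together with TLR4, and the purpose of the study, by its title, was to look at the HDM response with MD-2 suppressed. All cells were grown in BEGM medium, moved to BEBM medium 24 h before stimulation and harvested 24 h after it. Nothing in the labels ties the libraries of 1 group to separate cultures, and the p-values rest on a spread that may be technical only.

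IL-1 family cytokines are alarm signals of barrier tissues. IL-1 alpha (IL1A) and IL-1 beta (IL1B) bind the receptor IL1R1, which then recruits the accessory chain IL1RAP and signals through MYD88 and IRAK kinases to NF-kB. The antagonist encoded by IL1RN occupies IL1R1 without recruiting IL1RAP. IL-1 beta and IL-18 are made as precursors that inflammatory caspases cut, so an RNA level does not tell how much active cytokine is present. In the airway, IL-1 alpha released by damaged epithelium and signals through ST2 (IL1RL1, the receptor of IL-33) are both studied in allergic inflammation.

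Levels were read as FPKM (fragments per kilobase, scaled to the library's reads), a measure per length that allows genes to be set side by side. Differences were taken in log2(FPKM + 1), where a change in a low gene appears smaller than it is. They were tested with limma across all genes averaging 1 FPKM or more, with Benjamini-Hochberg adjustment and a threshold of 0.05. LY96 itself was listed at 0 FPKM throughout, also after control siRNA, so its depletion could not be checked and the LY96 siRNA groups are named by their label alone. The FPKM totals ranged from 329777 to 340328, and the read depth is unknown. Ribosomal RNA took 1.03% to 1.31% of the FPKM total in the LY96 siRNA HDM libraries and 0.475% to 0.824% in the control siRNA HDM libraries. It thus moved with every siRNA difference below, and its part in them was not tested. Of 8 epithelial markers, all averaged 1 FPKM or more, and their summed level was 1176 to 1240 FPKM with LY96 siRNA and HDM, 1298 to 1344 FPKM with control siRNA and HDM, 1359 FPKM with LY96 siRNA and PBS and 1347 FPKM with control siRNA and PBS. The markers did not move together: with LY96 siRNA under HDM, CDH1 was higher (log2 0.49, limma adjusted p = 8.14e-04), KRT8, KRT18 and KRT19 were lower (log2 -0.25, -0.24 and -0.66) and the other 4 were not called. With HDM over both siRNAs, 2 were higher (KRT5 and TP63) and 3 lower (KRT7, KRT8 and KRT18). Of all tested genes, 4.86% were higher and 3.5% lower with HDM, and 6.68% were higher and 8.92% lower with LY96 siRNA under HDM. The part of these markers in the results was not tested, and in such bulk RNA fewer cells of a type and less RNA per cell cannot be told apart.

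With HDM extract, over both siRNAs, the agonist genes IL1A and IL1B were higher and IL18 was lower, and the same held for LY96 siRNA against control siRNA under HDM. Within control siRNA alone the HDM rises of IL1A and IL1B did not pass the test, and IL1A was below 1 FPKM in both PBS libraries. IL1A reached 2.33 ± 0.297 FPKM with LY96 siRNA and 1.12 ± 0.180 FPKM with control siRNA under HDM (SD, n = 3 each). IL18 was at 19.7 ± 0.726 FPKM with LY96 siRNA and 25.4 ± 1.31 FPKM with control siRNA under HDM (SD, n = 3 each). The antagonist gene IL1RN and the receptor genes IL1R1 and IL1RAP did not pass the test in any comparison, and IL36G and IL1RL1 were too low to judge.

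IL1A and IL1B both lie on chromosome 2, and their start regions are shown because these are the members whose rise was called. The sequences are RefSeq's on GRCh38.p14, each the 250 bases before an annotated start, on the minus strand, at chr2:112784494-112784743 for IL1A (the outer of 2 starts) and chr2:112836780-112837029 for IL1B. Capitals mark matches on either strand to TATAAA or to TGANTCA, the AP-1 motif.

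IL1A: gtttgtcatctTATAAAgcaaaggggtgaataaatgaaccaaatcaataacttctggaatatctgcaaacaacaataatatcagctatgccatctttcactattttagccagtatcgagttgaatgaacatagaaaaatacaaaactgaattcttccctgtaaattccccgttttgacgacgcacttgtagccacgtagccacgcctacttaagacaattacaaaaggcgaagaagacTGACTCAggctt

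IL1B: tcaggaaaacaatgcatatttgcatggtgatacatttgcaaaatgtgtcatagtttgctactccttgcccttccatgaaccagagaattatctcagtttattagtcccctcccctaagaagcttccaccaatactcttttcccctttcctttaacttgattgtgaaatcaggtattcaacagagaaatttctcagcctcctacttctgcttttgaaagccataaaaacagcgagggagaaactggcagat

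The IL1A region shown held TATAAA beginning 239 bases before the start and TGANTCA beginning 12 bases before it. The region of the other IL1A start, at chr2:112784401-112784650, held no TATAAA and held TGANTCA beginning 105 and 55 bases before that start. The IL1B region held neither motif, and neither region shown held the kappaB consensus, which says only that these letters are absent from these windows. Among 35116 such regions of all genes, 10.7% held TATAAA, 6.57% held TGANTCA and 9.96% held the kappaB consensus. GENCODE v29 places the outer end of both genes inside the windows shown, at 112784590 and 112836903, so its outermost starts differ from those used here. IL1B has 6 transcript starts in GENCODE, and the others were not compared. The other members with an entry were IL1RN, IL36G, IL1R1, IL1RAP and IL1RL1, and 7 of the 8 members had one.

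Among the ligands, IL1A (chromosome 2, 112773915 to 112784590, GRCh38, GENCODE v29, as for all positions below), an alarmin that is active without cleavage, was at 2.20, 2.67 and 2.13 FPKM with LY96 siRNA and HDM and at 0.909, 1.23 and 1.21 FPKM with control siRNA and HDM. The PBS libraries held 0.857 FPKM with LY96 siRNA and 0.683 FPKM with control siRNA. Every HDM library lay above the PBS library of its siRNA, and the LY96 siRNA HDM libraries all lay above the control siRNA HDM libraries. Both PBS values were below 1 FPKM, so the gene entered the test through its HDM libraries. The mean was 2.09-fold higher with LY96 siRNA than with control siRNA under HDM (log2 0.65 ± 0.10 SE, limma adjusted p = 0.00361), and over both siRNAs it was higher with HDM by log2 0.58 ± 0.10 (SE, adjusted p = 0.00788). Within LY96 siRNA the HDM difference was 2.72-fold (log2 0.84 ± 0.14 SE, adjusted p = 0.00994), and within control siRNA it was 1.63-fold and did not pass (log2 0.33 ± 0.14 SE, adjusted p = 0.304). With a pseudocount of 0.1 in place of 1, the siRNA difference under HDM was log2 1.00.

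IL1B (chromosome 2, 112829751 to 112836903), whose precursor is cut by caspase-1, was at 3.52, 3.70 and 3.57 FPKM with LY96 siRNA and HDM and at 1.81, 2.42 and 2.28 FPKM with control siRNA and HDM. It was at 1.57 FPKM with LY96 siRNA and PBS and 1.41 FPKM with control siRNA and PBS. As for IL1A, the HDM libraries lay above their PBS library with both siRNAs and the HDM groups did not overlap. Under HDM the mean was 1.66-fold higher with LY96 siRNA than with control siRNA (log2 0.54 ± 0.08 SE, limma adjusted p = 0.00402), and over both siRNAs it was higher with HDM by log2 0.61 ± 0.09 (SE, adjusted p = 0.00248). The HDM difference was 2.29-fold within LY96 siRNA (log2 0.84 ± 0.12 SE, adjusted p = 0.00450) and 1.54-fold within control siRNA (log2 0.39 ± 0.12 SE, adjusted p = 0.159). Among all genes averaging 1 FPKM or more, IL1B had the profile over the 8 libraries most like that of IL1A, with a root mean square difference of 0.0738 in centred log2(FPKM + 1), followed by the threonyl- and methionyl-tRNA synthetase genes TARS (0.0861) and MARS (0.0873).

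IL18 (chromosome 11, 112143251 to 112164117), a cytokine that epithelial cells store as a precursor, was the highest member in every library and moved the opposite way. It was at 19.5, 19.1 and 20.5 FPKM with LY96 siRNA and HDM and at 24.8, 24.5 and 26.9 FPKM with control siRNA and HDM. The PBS libraries held 27.9 FPKM with LY96 siRNA and 34.9 FPKM with control siRNA. All HDM libraries lay below the PBS library of their siRNA, and the LY96 siRNA HDM libraries all lay below the control siRNA HDM libraries. IL18 was lower with LY96 siRNA under HDM (log2 -0.35 ± 0.05 SE, limma adjusted p = 0.00216) and lower with HDM over both siRNAs (log2 -0.46 ± 0.05 SE, adjusted p = 4.11e-04). It was the only member called within each siRNA, at log2 -0.48 ± 0.07 with LY96 siRNA (SE, adjusted p = 0.00338) and -0.45 ± 0.07 with control siRNA (SE, adjusted p = 0.00920). GENCODE places the protein-coding gene AP002884.3 across IL18 on the opposite strand, and whether the libraries kept strand is not given in the sources used here.

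IL36G (chromosome 2, 112973203 to 112985665), which encodes an epithelial cytokine acting through IL1RL2, was too low to judge. It was at 0.350, 0.197 and 0.307 FPKM with LY96 siRNA and HDM and at 0.184, 0.126 and 0.261 FPKM with control siRNA and HDM, against 0 FPKM with LY96 siRNA and PBS and 0.0674 FPKM with control siRNA and PBS. The HDM libraries lay above their PBS library with both siRNAs and the HDM groups overlapped, but at a mean of 0.186 FPKM the gene was below the level tested.

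**Figure D1:**
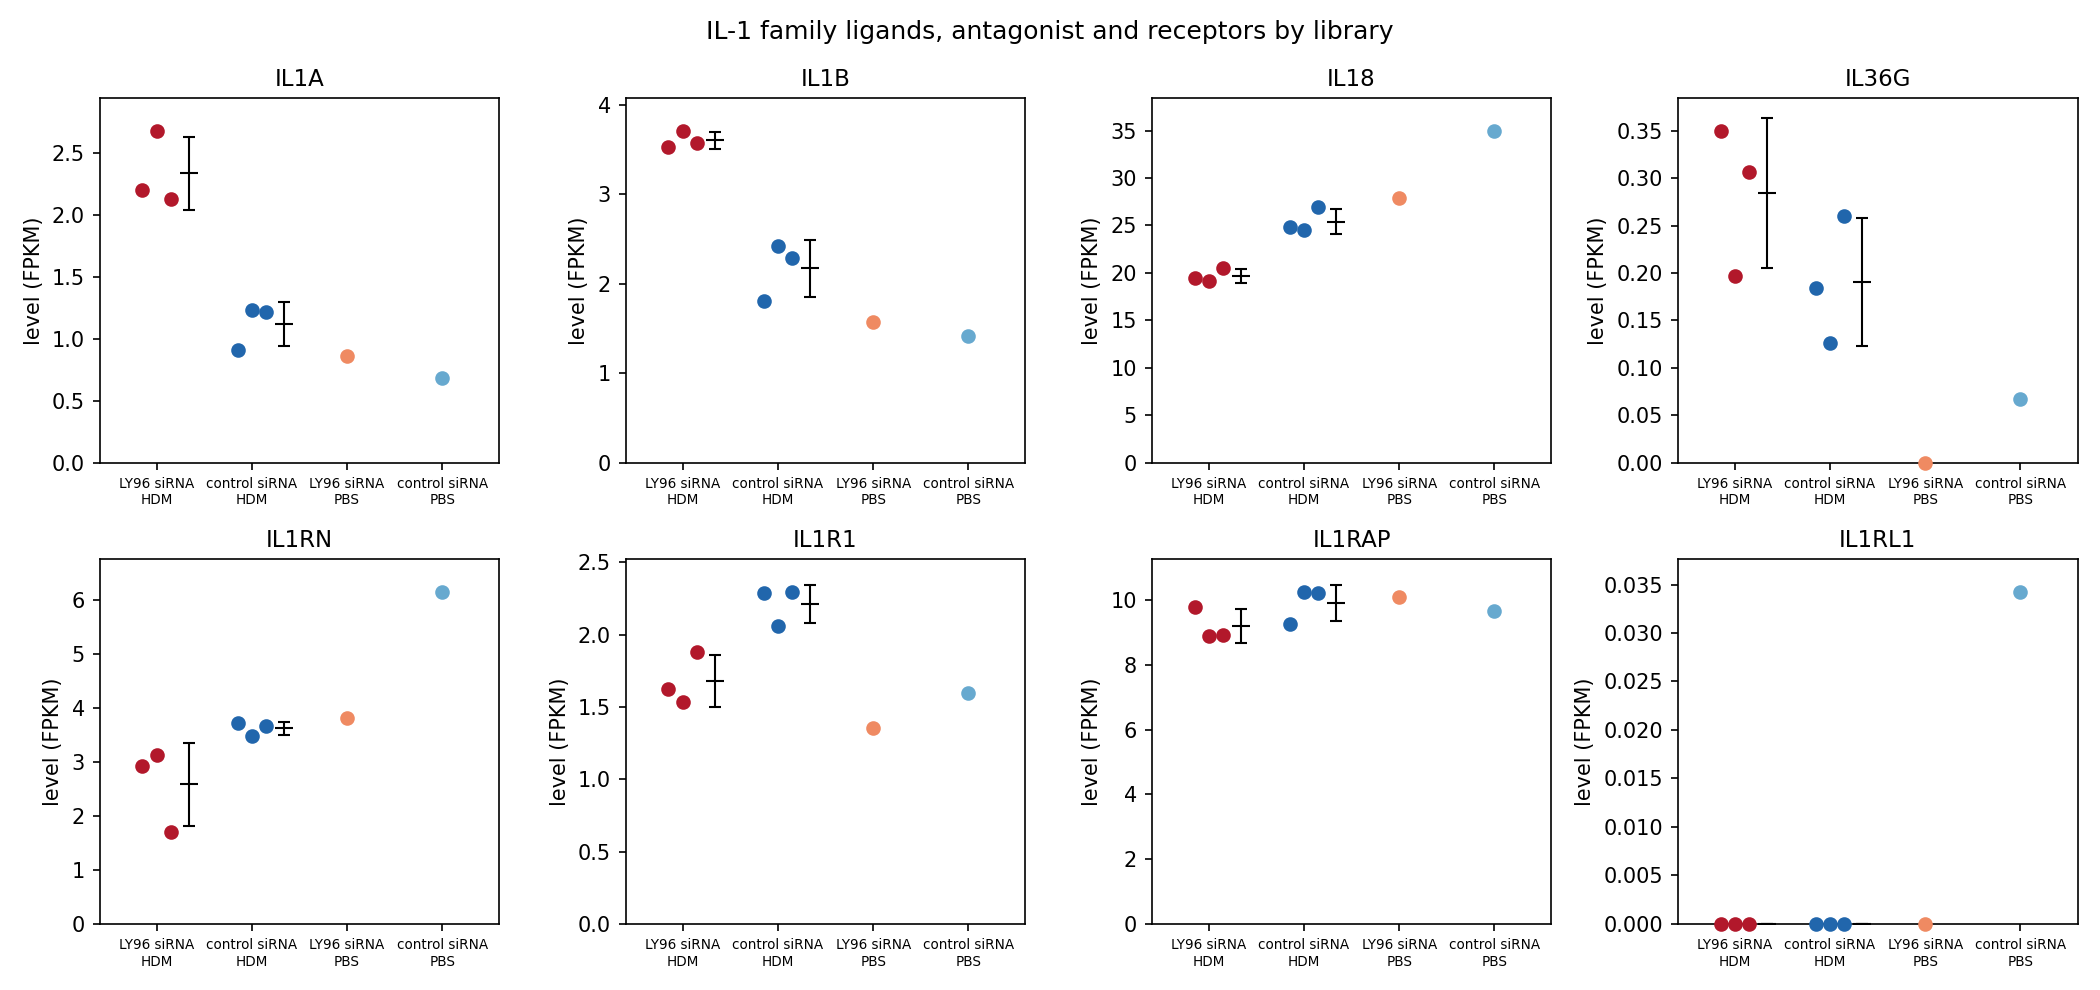
Level in FPKM of the 8 genes in each library (points, 1 panel a gene, vertical axes from 0), with mean and SD beside the 3 HDM libraries of each siRNA. IL1A and IL1B are highest and IL18 and IL1RN lowest with LY96 siRNA and HDM, while IL1RAP stays between 8.90 and 10.2 FPKM and IL1RL1 is above 0 in 1 library.

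The antagonist gene IL1RN (chromosome 2, 113107214 to 113134016) was at 2.92, 3.13 and 1.71 FPKM with LY96 siRNA and HDM and at 3.71, 3.48 and 3.66 FPKM with control siRNA and HDM. It was at 3.81 FPKM with LY96 siRNA and PBS and 6.14 FPKM with control siRNA and PBS. The groups did not overlap and every HDM library lay below its PBS library, but LY96 siRNA HDM replicate 3 stood well under the other two of its group. The difference did not pass for LY96 siRNA under HDM (log2 -0.39 ± 0.15 SE, limma adjusted p = 0.118) or for HDM over both siRNAs (log2 -0.54 ± 0.15 SE, adjusted p = 0.0744). Without LY96 siRNA HDM replicate 3 the siRNA difference was log2 -0.20 (limma adjusted p = 0.103). The HDM difference over both siRNAs passed without that library (log2 -0.44, limma adjusted p = 0.00397) and without LY96 siRNA HDM replicate 2 (log2 -0.60, adjusted p = 0.0409). IL1RN makes secreted and intracellular forms from different first exons, with 7 transcript starts in GENCODE, and the gene-level value does not separate them. Among genes averaging 1 FPKM or more, those with the most similar profiles over the 8 libraries were the transcription factor gene EGR3 (root mean square difference 0.0868 in centred log2(FPKM + 1)), the epidermal lipid transporter gene ABCA12 (0.120) and TINCR (0.133), a transcript of epidermal differentiation. Like IL1RN, each was lowest in LY96 siRNA HDM replicate 3, at 0.829, 0.714 and 4.08 FPKM, so the likeness rests in part on that library.

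Set against the agonists in each library, IL1RN over the sum of IL1A and IL1B was 0.510, 0.491 and 0.299 with LY96 siRNA and HDM and 1.37, 0.955 and 1.05 with control siRNA and HDM, as a ratio of FPKM. It was 1.57 with LY96 siRNA and PBS and 2.93 with control siRNA and PBS. The antagonist RNA thus exceeded the agonist RNA in both PBS libraries and was below it in all LY96 siRNA HDM libraries. The ratio is a description with no test, and it concerns RNA and not protein.

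**Figure D2:**
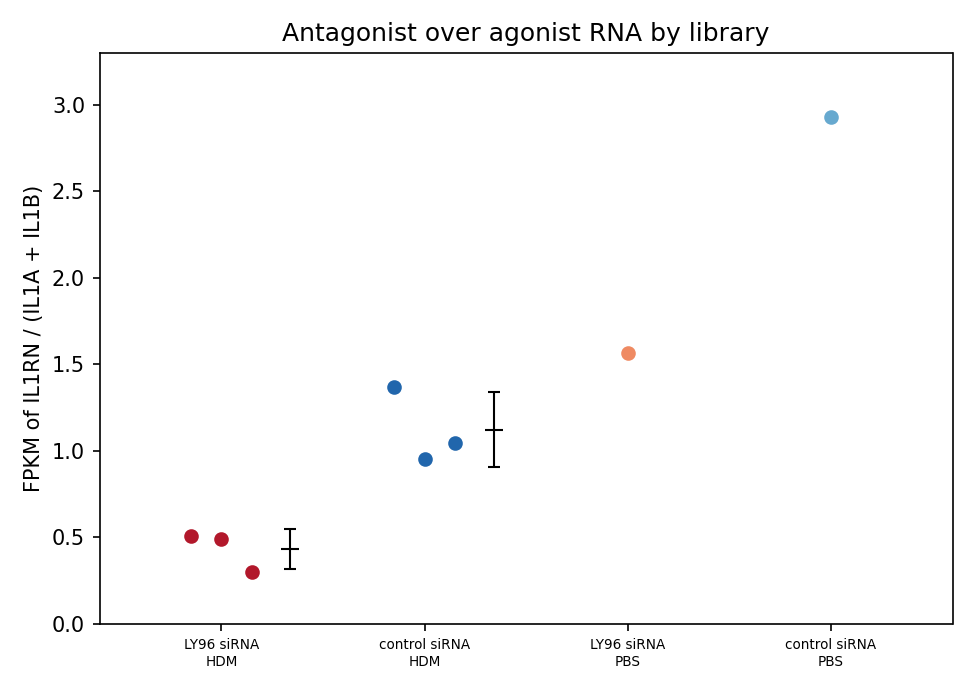
Ratio of the FPKM of IL1RN to the summed FPKM of IL1A and IL1B in each library (points), with mean and SD beside the 3 HDM libraries of each siRNA. The LY96 siRNA HDM libraries lie between 0.299 and 0.510, below all others, and the control siRNA PBS library is highest at 2.93.

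Of the receptors, IL1R1 (chromosome 2, 102064544 to 102179874), the signalling receptor of IL-1 alpha and IL-1 beta, was at 1.63, 1.53 and 1.88 FPKM with LY96 siRNA and HDM and at 2.28, 2.06 and 2.29 FPKM with control siRNA and HDM. It was at 1.35 FPKM with LY96 siRNA and PBS and 1.59 FPKM with control siRNA and PBS. The LY96 siRNA HDM libraries all lay below the control siRNA HDM libraries, and the HDM libraries all lay above their PBS library. Neither difference passed the test, at log2 -0.26 ± 0.08 for LY96 siRNA under HDM (SE, limma adjusted p = 0.0556) and 0.25 ± 0.08 for HDM over both siRNAs (SE, adjusted p = 0.106). The siRNA difference passed without LY96 siRNA HDM replicate 3 (adjusted p = 0.0492). The antisense gene IL1R1-AS1 overlaps IL1R1 on the opposite strand.

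IL1RAP (chromosome 3, 190514051 to 190659750), the accessory chain shared by IL1R1, ST2 and the IL-36 receptor, was at 9.80, 8.90 and 8.93 FPKM with LY96 siRNA and HDM and at 9.28, 10.2 and 10.2 FPKM with control siRNA and HDM. It was at 10.1 FPKM with LY96 siRNA and PBS and 9.66 FPKM with control siRNA and PBS. The HDM groups overlapped, and the control siRNA HDM libraries lay on both sides of their PBS library. The 95% interval of the difference was log2 -0.22 to 0.03 for LY96 siRNA under HDM and -0.17 to 0.08 for HDM over both siRNAs. IL1RAP also makes a soluble form, which the gene-level value does not separate.

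IL1RL1 (chromosome 2, 102311502 to 102352037), which encodes ST2, was listed at 0 FPKM in 7 libraries and at 0.0342 FPKM in the control siRNA PBS library, and was too low to judge. It overlaps IL18R1 on the same strand, which had a mean of 0.301 FPKM.

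By level, IL18 came first and IL1RAP second in every library. With LY96 siRNA and HDM, IL1B followed at 3.52 to 3.70 FPKM, and IL1RN at 1.71 to 3.13 FPKM overlapped both IL1A at 2.13 to 2.67 FPKM and IL1R1 at 1.53 to 1.88 FPKM. With control siRNA and HDM, IL1RN came after IL1RAP at 3.48 to 3.71 FPKM, IL1R1 at 2.06 to 2.29 FPKM and IL1B at 1.81 to 2.42 FPKM overlapped, and IL1A was below them at 0.909 to 1.23 FPKM. In the PBS libraries IL1RN also followed IL1RAP, and IL36G and IL1RL1 were last throughout.

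In counts, 2 of the 6 tested members were higher and 1 was lower with LY96 siRNA under HDM, where 15.6% of 12598 genes were called, 6.68% higher and 8.92% lower. Those calls were 842 higher and 1124 lower, and with median-ratio scaling 1068 higher and 877 lower. The LY96 siRNA HDM libraries lay wholly above the control siRNA HDM libraries for 2 of the 6 and wholly below for 3, where 15.2% and 21.8% of all tested genes did so. Over both siRNAs, 2 of the 6 were higher and 1 was lower with HDM, where 8.36% of 12604 genes were called, 4.86% higher and 3.5% lower. IL1A, among those higher, was below 1 FPKM in both PBS libraries and entered the HDM tests through its HDM libraries. The HDM counts that include it, here and below, are therefore a description. The HDM libraries lay wholly above the PBS library with both siRNAs for 3 of the 6 and wholly below for 2, where 16% and 12.9% of all tested genes did so. With LY96 siRNA alone these counts were 3 above and 3 below, against 33.4% and 27.7% of all tested genes, and with control siRNA alone 3 above and 2 below, against 33.8% and 29.2%. Within LY96 siRNA 2 members were called higher and 1 lower, against 4.9% of all genes called (2.91% higher, 1.98% lower). Within control siRNA 1 member was called, lower, against 2.28% of all genes called (1.55% higher, 0.738% lower). The median difference of the tested members was log2 -0.18 for LY96 siRNA under HDM and 0.10 for HDM over both siRNAs, against -0.02 and 0.01 over all genes tested. The HDM comparisons rest on 1 PBS library for each siRNA and take its spread to be that of the HDM libraries. The siRNA and HDM comparisons share the HDM libraries, so their values are not independent.

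**Figure D3:**
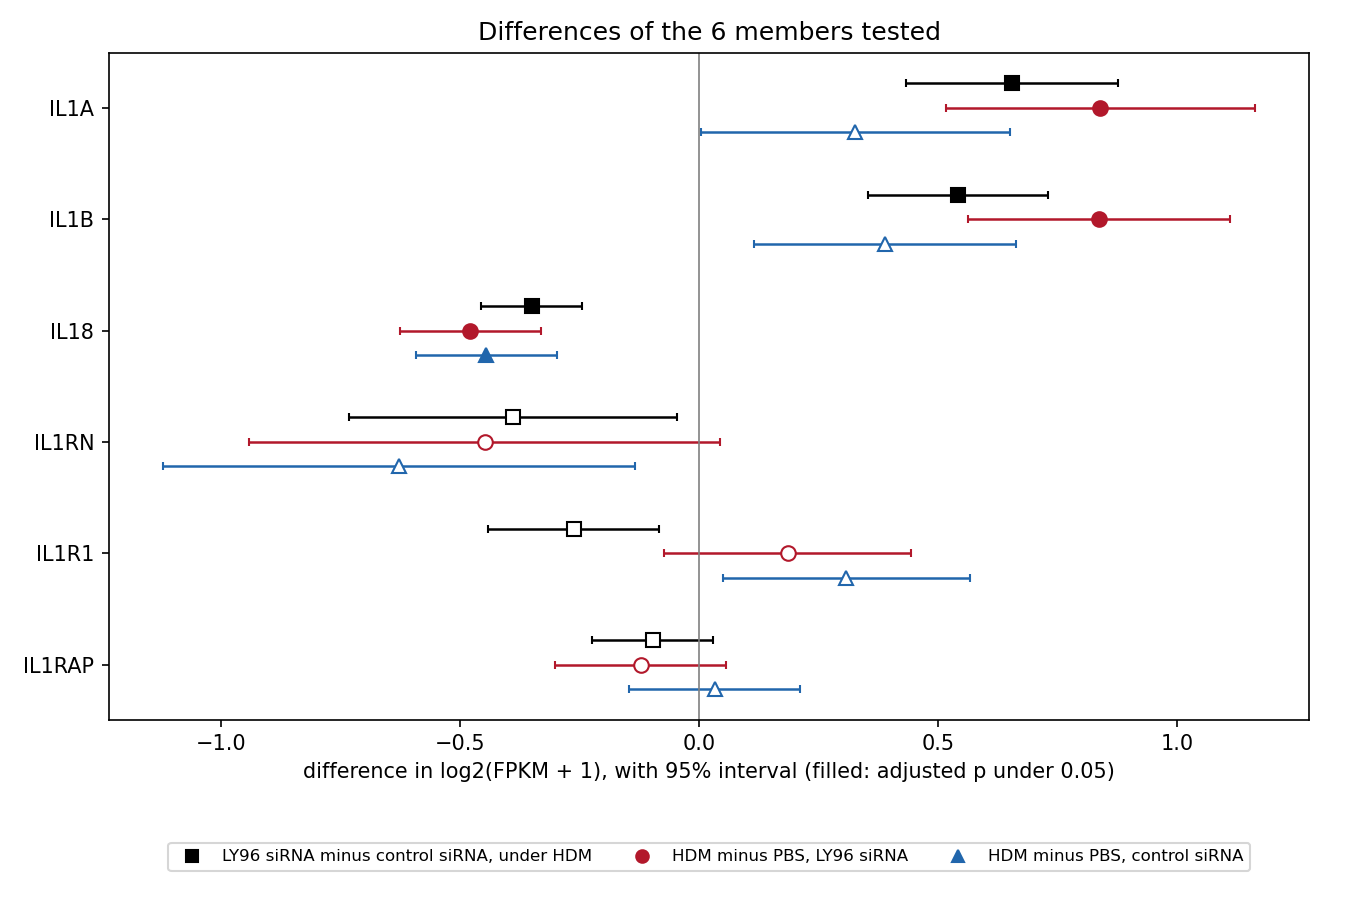
Difference in log2(FPKM + 1) with its 95% interval for the 6 members tested, for LY96 siRNA minus control siRNA under HDM (squares), HDM minus PBS with LY96 siRNA (circles) and HDM minus PBS with control siRNA (triangles), filled where the adjusted p was under 0.05. IL1A and IL1B lie to the right in all 3 and IL18 and IL1RN to the left in all 3, with IL18 filled throughout.

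Whether the HDM response itself differed between siRNAs was tested as an interaction, the HDM difference under LY96 siRNA less the one under control siRNA. It was log2 0.51 ± 0.20 for IL1A (SE, limma adjusted p = 0.611) and 0.45 ± 0.17 for IL1B (SE, adjusted p = 0.600), and 0 of the 6 members were called, against 0.0555% of all genes. At an unadjusted limma p under 0.05, 2 members passed, IL1A at 0.0317 and IL1B at 0.0282, as did 956 of 12604 genes. For IL18 it was log2 -0.03, with a 95% interval of -0.24 to 0.17. In the PBS libraries alone, LY96 siRNA over control siRNA gave ratios of 1.25 for IL1A, 1.11 for IL1B, 0.797 for IL18, 0.621 for IL1RN, 0.849 for IL1R1 and 1.04 for IL1RAP, from 1 library each and with no test.

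Monocytes and macrophages are a major source of IL-1 beta, and their markers were checked. Of 8 such markers, PTPRC and TYROBP were at 0 in all libraries and only CD14 and CD68, which epithelial cells also express, averaged 1 FPKM or more. The summed level of all 8 was 9.17 to 10.7 FPKM with LY96 siRNA and HDM, 8.22 to 9.05 FPKM with control siRNA and HDM, 7.38 FPKM with LY96 siRNA and PBS and 6.66 FPKM with control siRNA and PBS. With LY96 siRNA under HDM, CD68 was higher (log2 0.54 ± 0.08 SE, limma adjusted p = 0.00304) while CD14 was not called (log2 -0.07 ± 0.07 SE, adjusted p = 0.526). Both were higher with HDM over both siRNAs (log2 0.40 for CD68 and 0.38 for CD14, adjusted p = 0.0147 and 0.0132). The part of these differences in those of IL1A and IL1B was not tested. Mast cells are known for high IL1RL1, and of 6 mast cell markers 4 were at 0 in all libraries and 0 averaged 1 FPKM or more, as was so for 0 of 5 lymphocyte and 0 of 3 endothelial markers. Of 6 fibroblast markers, DCN and LUM were at 0 in all libraries, and the summed level was 16.9 to 19.0 FPKM with LY96 siRNA and HDM, 16.0 to 17.0 FPKM with control siRNA and HDM, 25.7 FPKM with LY96 siRNA and PBS and 22.9 FPKM with control siRNA and PBS. The 2 that averaged 1 FPKM or more were PDGFRB, lower with HDM over both siRNAs (log2 -0.60 ± 0.05 SE, limma adjusted p = 1.62e-04), and COL1A1, higher with LY96 siRNA under HDM (log2 0.37 ± 0.09 SE, adjusted p = 0.0269), and their part in the results was not tested.

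Other ligands of the family were low. All 6 other ligand genes were below the level tested, with IL33, the ligand of ST2, IL36A and IL36B at 0 FPKM in all 8 libraries. IL36RN, the antagonist of the IL-36 receptor, was at 0.117 to 0.240 FPKM with LY96 siRNA and HDM and 0.414 to 0.457 FPKM with control siRNA and HDM, against 0.375 FPKM with LY96 siRNA and PBS and 0.718 FPKM with control siRNA and PBS. Of 8 other receptors and soluble binders, 2 were tested and neither was called for siRNA under HDM or for HDM over both siRNAs. They were SIGIRR, an inhibitory receptor, at a mean of 6.88 FPKM, and IL18BP, the secreted binder of IL-18, at 3.51 FPKM. The decoy receptor gene IL1R2 was above 0 in 2 libraries, at most at 0.101 FPKM, and IL18RAP was at 0 in all 8.

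Of 17 genes of maturation and release, 10 were tested; 3 rose and 1 fell with HDM over both siRNAs, and 3 rose and 0 fell with LY96 siRNA under HDM. Of all tested genes, 4.86% were higher and 3.5% lower with HDM, and 6.68% were higher and 8.92% lower with LY96 siRNA under HDM. CASP4, an inflammatory caspase that senses lipopolysaccharide in the cytosol, rose with HDM by log2 0.34 ± 0.04 (SE, limma adjusted p = 8.24e-04). PANX1, a channel for ATP release, rose by 0.25 ± 0.04 (SE, limma adjusted p = 0.00427; 0.0620 in an additive model). Its HDM difference was log2 0.06 with LY96 siRNA (adjusted p = 0.653) and 0.44 with control siRNA (adjusted p = 0.00406), where the PBS libraries held 12.8 FPKM with LY96 siRNA and 8.29 FPKM with control siRNA. The difference between these did not pass (log2 -0.37, adjusted p = 0.196). CASP1 rose with HDM by 0.19 ± 0.05 (SE, limma adjusted p = 0.0341), and CAPN2, a calpain subunit, fell by 0.14 (adjusted p = 0.0209). CASP1 was at 17.6 to 19.4 FPKM with LY96 siRNA and HDM, 17.4 to 18.3 FPKM with control siRNA and HDM, 16.6 FPKM with LY96 siRNA and PBS and 15.1 FPKM with control siRNA and PBS. Its call was lost without LY96 siRNA HDM replicate 1 and without control siRNA HDM replicates 1 and 2 (adjusted p = 0.0570, 0.0629 and 0.0715). It was also lost with no low-value filter, with quantile normalization and without trend and robust moderation (adjusted p = 0.0743, 0.0604 and 0.0690), so that 8 of 14 alternatives kept it. Near-identical CARD genes lie beside CASP1, so its value is uncertain. The CAPN2 fall was lost without control siRNA HDM replicate 2 (adjusted p = 0.0516) and without trend and robust moderation (adjusted p = 0.0691).

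With LY96 siRNA under HDM the genes that rose were the gasdermin gene GSDME (listed under its older symbol DFNA5; log2 0.28 ± 0.04 SE, limma adjusted p = 0.00384), PANX1 (0.20 ± 0.04 SE, adjusted p = 0.0103) and CAPN2 (0.15 ± 0.03 SE, adjusted p = 0.0151). CAPN2 lost this call without control siRNA HDM replicate 2 or 3 (adjusted p = 0.0564 and 0.0508). The median over the 10 was log2 0.09 in both comparisons, against -0.02 for LY96 siRNA and 0.01 for HDM over all genes tested. The inflammasome adaptor gene PYCARD averaged 29.1 FPKM and the pore gene GSDMD 36.8 FPKM over the 8 libraries, and neither was called. The sensor genes NLRP3, at 0.0423 FPKM, and AIM2, at 0.0373 FPKM, were too low to judge.

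All 15 receptor-proximal signalling genes were tested, and IRAK2 and IRAK3 were the 2 called in both comparisons, both higher, where 15.6% of all tested genes were called for LY96 siRNA under HDM and 8.36% for HDM over both siRNAs. The count for LY96 siRNA is thus near that of all genes. The HDM count includes IRAK2, which was below 1 FPKM in both PBS libraries, so it is a description. IRAK2, which sustains signalling behind MYD88, was at 2.11, 2.07 and 2.09 FPKM with LY96 siRNA and HDM and at 1.55, 1.27 and 1.17 FPKM with control siRNA and HDM, against 0.736 FPKM with LY96 siRNA and PBS and 0.503 FPKM with control siRNA and PBS. The 4 groups kept this order without overlap, and since both PBS values were below 1 FPKM the gene entered the HDM test through its HDM libraries. It differed by log2 0.41 ± 0.08 for LY96 siRNA under HDM (SE, limma adjusted p = 0.0129) and 0.73 ± 0.09 for HDM over both siRNAs (SE, adjusted p = 0.00114). IRAK3, a brake on the same kinases, differed by 0.22 ± 0.07 for LY96 siRNA under HDM (SE, adjusted p = 0.0498) and 0.30 ± 0.07 for HDM over both siRNAs (SE, adjusted p = 0.0270). Leaving out any one HDM library ended the siRNA call of IRAK3 (adjusted p from 0.0709 to 0.141), as did the replicate block (adjusted p = 0.0767). IRAK3 kept this call in 4 of 14 alternatives, losing it also with pseudocounts of 0.1 and 0.25 and with no low-value filter. Its HDM call ended without LY96 siRNA HDM replicate 1 and without control siRNA HDM replicates 2 and 3 (adjusted p = 0.0545, 0.0515 and 0.0560). The adaptor gene MYD88, at a mean of 14.5 FPKM, was not called, nor was the kinase gene IRAK1, at 68.6 FPKM (log2 0.11 ± 0.03 SE for LY96 siRNA under HDM, adjusted p = 0.0503), and the median over the 15 was log2 0.03 for LY96 siRNA under HDM and 0.01 for HDM over both siRNAs.

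Of 9 genes known to be inducible by IL-1 in epithelium, 8 were tested. With LY96 siRNA under HDM, 6 rose and 1 fell (median log2 0.57), where 6.68% of all tested genes were higher and 8.92% lower. All 8 were called higher with HDM over both siRNAs, but CCL20, CXCL8 and IL6 were below 1 FPKM in both PBS libraries and entered that test through their HDM libraries alone, so this count is a description. Other stimuli of NF-kB raise the same genes, and CXCL1, CXCL8, CCL20 and IL6 were listed with their HDM rises known. These genes are all among the 6 that rose with LY96 siRNA under HDM, so that count is a description too. NFKBIZ, a nuclear IkB protein gene, rose with HDM by log2 1.53 ± 0.05 (SE, limma adjusted p = 4.15e-07) and with LY96 siRNA under HDM by 0.32 ± 0.05 (SE, adjusted p = 0.00341). ZC3H12A, which encodes an RNase that degrades cytokine transcripts, rose by 1.36 ± 0.06 and 0.42 ± 0.05 in the same comparisons (SE, adjusted p = 1.57e-06 and 0.00206). LCN2, the iron-binding lipocalin gene, was at 13.0, 12.1 and 11.6 FPKM with LY96 siRNA and HDM and at 15.8, 13.9 and 15.5 FPKM with control siRNA and HDM, against 3.09 FPKM with LY96 siRNA and PBS and 7.13 FPKM with control siRNA and PBS. It rose with HDM by log2 1.34 ± 0.06 (SE, adjusted p = 2.49e-06) and was the one that fell with LY96 siRNA under HDM, at -0.28 ± 0.06 (SE, adjusted p = 0.0146; 0.0504 without control siRNA HDM replicate 3). BIRC3 was at log2 -0.03 for LY96 siRNA under HDM (adjusted p = 0.788), and DEFB4A was at 0 FPKM in all libraries.

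**Figure D4:**
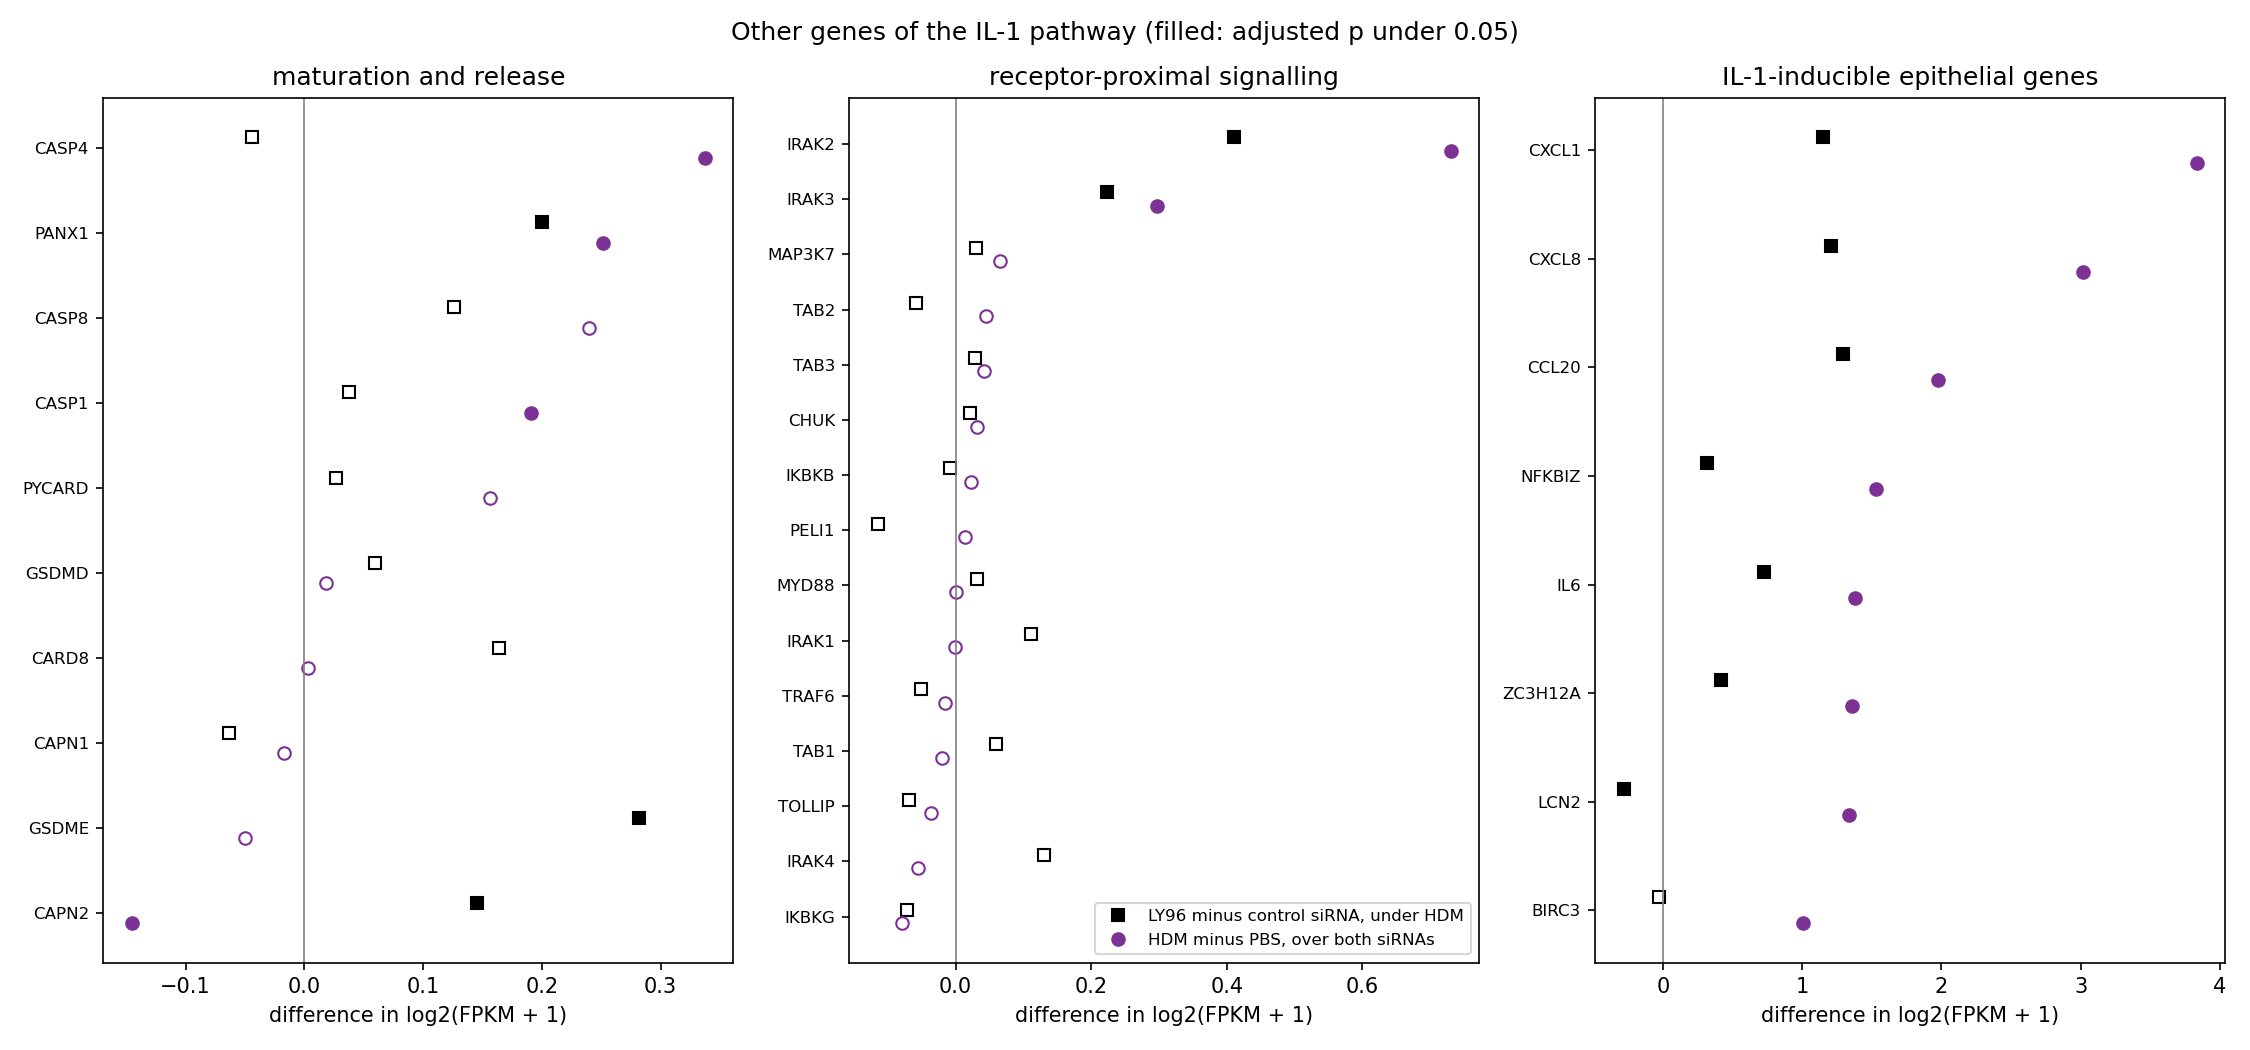
Difference in log2(FPKM + 1) for the tested genes of 3 lists, for LY96 siRNA minus control siRNA under HDM (squares) and HDM minus PBS over both siRNAs (circles), filled where the adjusted p was under 0.05. The horizontal scales differ between panels: IRAK2 and IRAK3 carry the only filled symbols among the 15 signalling genes, and the 8 IL-1-inducible genes have HDM differences of at least 1.01. CCL20, CXCL8, IL6 and IRAK2 entered the HDM test through their HDM libraries.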

How the data were processed

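RNA of 8 BEAS-2B libraries in 4 groups, taken from the titles in the labels, was deposited as 1 table a library. Neither labels nor headers name the unit, and the deposited values were read as FPKM because they are not whole, have unequal totals and show no steps of whole reads. The submitters' processing notes list HISAT2 2.2.0 as a tool and hg38 as a build; the program behind the values is not given in the sources used here. Counting intervals could not be formed.

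limma 3.58.1 in R 4.3.3, with trend and robust moderation, was run on log2(FPKM + 1) of genes averaging 1 FPKM or more in the fitted libraries. The siRNA effect used the 6 HDM libraries. The HDM contrasts came from a model with 4 group means fitted to all 8 libraries. Residual degrees of freedom were 4 in both, and p-values are two-sided. The scripts were tested on simulated data. The members and gene lists were chosen with earlier results of these data known. Genes named were the members, those of the fixed lists that were called or central to a role, and the 3 nearest profiles of members spanning at least 1 in log2. Figures used matplotlib 3.10.9.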

Additional observations from a re-analysis of the deposited data

How the results depend on the processing

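For the 6 tested members, 380 of 388 alternative values kept their direction and their side of the threshold, and 7 moved past it. The siRNA calls under HDM for IL1A, IL1B and IL18, and their HDM calls over both siRNAs, held in every alternative run that gave them a value. No run varied the PBS libraries, 1 for each siRNA. IL1A was below 1 FPKM in both and entered the main HDM test through its HDM libraries, so its HDM call remains a description. The siRNA difference of IL1R1 passed without trend and robust moderation (log2 -0.26, limma adjusted p = 0.0364) and in an additive model of siRNA and HDM (-0.23, adjusted p = 0.0402), and it ranged from -0.32 to -0.22 as each library was left out. That of IL1RN passed in the additive model (-0.43, adjusted p = 0.0404; 0.0404 to 0.240 over its alternatives) and ranged from -0.50 to -0.20 in the same way. The HDM difference of IL1RN ranged from -0.60 to -0.44 over both siRNAs, and from -0.64 to -0.61 with control siRNA, where it passed without LY96 siRNA HDM replicate 3 (adjusted p = 0.00844). The difference in HDM effect for IL18 changed sign without control siRNA HDM replicate 3 (0.0068) and ranged from -0.062 to 0.0068. The causes were not tested. Over all genes, the count lower with LY96 siRNA under HDM was 553 to 799 with 1 library left out, against 1124. Without trend and robust moderation, 158 genes were lower with HDM under LY96 siRNA, against 250, and 47 under control siRNA, against 93. With control siRNA, leaving out a library gave 126 to 218 higher and 53 to 111 lower, against 195 and 93. The genes whose HDM effect was higher with LY96 siRNA numbered 7, and 13 without a low-value filter, 14 with a filter at 5 FPKM, 14 with quantile normalization, 0 without trend and robust moderation and 0 to 31 with a library left out. Those lower numbered 0, and 7 without a filter, 1 with the filter at 5 FPKM and 0 to 2 with a library left out. The filter at 5 FPKM gave no value for members other than IL18 and IL1RAP. The labels do not say whether the replicate numbers pair the samples. Same-numbered HDM libraries had deviations correlated at 0.0485, -0.0165 and -0.0162 across genes, and not every library correlated best with its own number. These values cannot settle pairing, since a shared source with a small effect would also leave low correlations. With the replicate as a block, 716 genes were higher and 919 lower with LY96 siRNA under HDM, and no member's call changed. Read depth is unknown, which leaves IL36G and IL1RL1 without a limit of detection.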

Other observations

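The balance within the agonist pair and within the receptor pair also varied. IL1B over IL1A, as a ratio of FPKM, was 1.61, 1.39 and 1.68 with LY96 siRNA and HDM and 1.99, 1.97 and 1.88 with control siRNA and HDM, against 1.84 with LY96 siRNA and PBS and 2.07 with control siRNA and PBS. IL1RAP over IL1R1 was 6.02, 5.80 and 4.75 with LY96 siRNA and HDM and 4.06, 4.97 and 4.46 with control siRNA and HDM, against 7.46 with LY96 siRNA and PBS and 6.06 with control siRNA and PBS. The accessory chain therefore exceeded the receptor in FPKM in all 8 libraries. These ratios were chosen after the values were seen and carry no test.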
